A study of Homo sapiens with 6 samples.

Results

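The genes described here run central carbon metabolism: they carry glucose into the cell, split it to pyruvate and lactate (glycolysis), divert its carbon into the pentose phosphate pathway, remake it from smaller precursors (gluconeogenesis), and burn pyruvate in the mitochondrial TCA cycle. The 56 genes were listed by name from these pathways and not picked by a measured value, though earlier results of these data were known. All 56 had a row among the 16781 genes of the expression table, and 55 had enough counts for a test. RNA was measured in Caco-2, a cell line established from a human colon carcinoma that acquires enterocyte traits once its cultures are confluent. The 6 libraries were 3 of WT cells and 3 of CBS KO cells, in which a lentiviral Cas9 and guide vector had been aimed at CBS, the transsulfuration enzyme that also makes hydrogen sulfide. Both genotypes grew in high-glucose medium with serum. The CBS KO cells were a puromycin-resistant culture in which no single clone is named, and no vector or puromycin treatment is described for the WT cells, so the targeting of CBS cannot be told apart from the vector and the selection.

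Glucose enters through carriers of the SLC2A family, is trapped by hexokinases and committed to glycolysis by phosphofructokinase, and ends as pyruvate. Pyruvate is either reduced to lactate by lactate dehydrogenase and exported, or oxidised by pyruvate dehydrogenase, which its kinases (PDK) switch off. Many of these steps are run by more than 1 isozyme, encoded by separate genes with their own tissue patterns, and several of the genes are textbook targets of the hypoxia-inducible factor HIF-1. Proliferating carcinoma cells commonly run glycolysis at a high rate even where oxygen is present.

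Total counts ranged from 16097680 to 16176745 per WT library and from 12805180 to 14307287 per CBS KO library. The targeted CBS gene stood at 50.8 ± 2.11 CPM in WT (counts per 1000000, scaled by TMM, the trimmed mean of M values; SD, n = 3, as for all such values) and at 22.8 ± 3.81 in CBS KO, a fall of 1.15 on the log2 scale (SE 0.10, adjusted p = 1.18e-08, edgeR), and its reads may be shared with the near-identical copy CBSL. A larger share of reads went to the top 10 genes in CBS KO (7.78 to 8.85%) than in WT (5.22 to 5.51%). Of 12 intestinal epithelial markers 11 reached 1 FPKM (fragments per kilobase and per 1000000 fragments) in at least 1 library, CDX1 in none, and their summed level was 6327 to 6818 FPKM in WT and 6784 to 7301 in CBS KO. Single markers moved in both directions: 8 were called higher and 2 lower. CDX2 stood at 118 to 131 FPKM in WT and 26.6 to 27.2 in CBS KO, and VIL1 at 171 to 177 and 107 to 111. GPA33 stood at 5.79 to 7.18 and 36.4 to 43.0, and KRT20 at 0.54 to 0.62 and 2.34 to 2.74. Among markers of other cells, PTPRC, CD3E, CD79A, TYROBP, COL1A2, COL3A1, THY1, CDH5 and VWF were under 1 FPKM in every library. Others were not: COL1A1 stood at 36.4 to 41.6 FPKM in WT and 27.3 to 30.5 in CBS KO, PDGFRA at 5.31 to 5.85 and 1.28 to 2.27, PDGFRB at 3.97 to 4.18 and 0.72 to 0.84, and PECAM1 at 7.72 to 8.32 and 1.76 to 1.94. LUM went the other way, from 0.60 to 0.83 FPKM in WT to 1.23 to 1.55 in CBS KO. Of the fibroblast markers 1 was called higher and 3 lower. The summed FPKM of 6 immune markers, carried by CD68 and LYZ, was 26.7 to 31.4 in WT and 62.6 to 68.0 in CBS KO, that of 7 fibroblast markers 47.3 to 53.1 and 31.6 to 34.0, and that of 3 endothelial markers 8.02 to 8.78 and 2.07 to 2.17. The part of these differences in the results was not tested. In bulk RNA, fewer cells of a type and less RNA per cell cannot be told apart. Whether replicate libraries were grown as separate cultures is not labelled. The p-values therefore reflect only the spread among these samples, possibly technical.

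Of the 55 tested members, 28 were higher in CBS KO, 19 lower and 8 not called (edgeR quasi-likelihood test, adjusted p under 0.05 over 13028 genes). Over all genes tested 38.4% were called higher and 38.9% lower (77.2% in either direction), so the share of called members was near the background and lay further on the higher side. A change of at least 2-fold was called for 8 members that were higher and 3 that were lower, against 12.0% and 11.5% of all genes. The 8 were the glucose carriers SLC2A1 and SLC2A3, the hexokinase HK2, the aldolases ALDOA and ALDOC, the enolase ENO2, the kinase PDK1 and the gluconeogenic PCK1. The 3 were OGDH of the TCA cycle, the kinase PDK2 and the gluconeogenic FBP1. The WT and CBS KO libraries did not overlap for 28 members that were higher and 18 that were lower, against 38.9% and 40.1% of all genes. The counts by role below come from few genes each and are to be read beside these shares of all genes.

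The direction of the smaller changes depended on how the libraries were scaled. Over all genes the median log2 fold change lay at -0.01 with TMM, at -0.36 with the library total, at -0.27 with log2(FPKM + 1) and at -0.47 with log2(TPM + 1). The members' median was 0.21, -0.14, -0.16 and -0.39 under the same 4 scalings, above that of all genes by 0.22, 0.22, 0.12 and 0.08. With the library total 18 members were higher and 29 lower, with FPKM 18 and 30, and with TPM 11 and 34. The calls over all genes shifted to the lower side as well. With the library total 2966 of 13028 genes were higher and 7403 lower. With FPKM it was 2987 and 7255 of 13259 genes, and with TPM 2081 and 8700 of 13608. Under all 5 scalings compared (the fifth being median-ratio factors) 11 members were called higher, against 15.0% of 12859 genes, and 19 lower, against 37.9%. The 11 were SLC2A1, SLC2A3, the lactate exporter SLC16A3, HK2, ALDOA, ALDOC, GAPDH, PGK1, ENO2, PDK1 and PCK1. All 19 members called lower with TMM were called lower under each of the 5. The library total, FPKM and TPM moved the median of all genes down, so a lower call could hardly be lost. Over all genes 38.9% were called lower with TMM, while the higher side went from 38.4% with TMM to the 15.0%. Being lower under all 5 scalings, here and below, therefore adds little to the call with TMM.

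**Figure D1:**
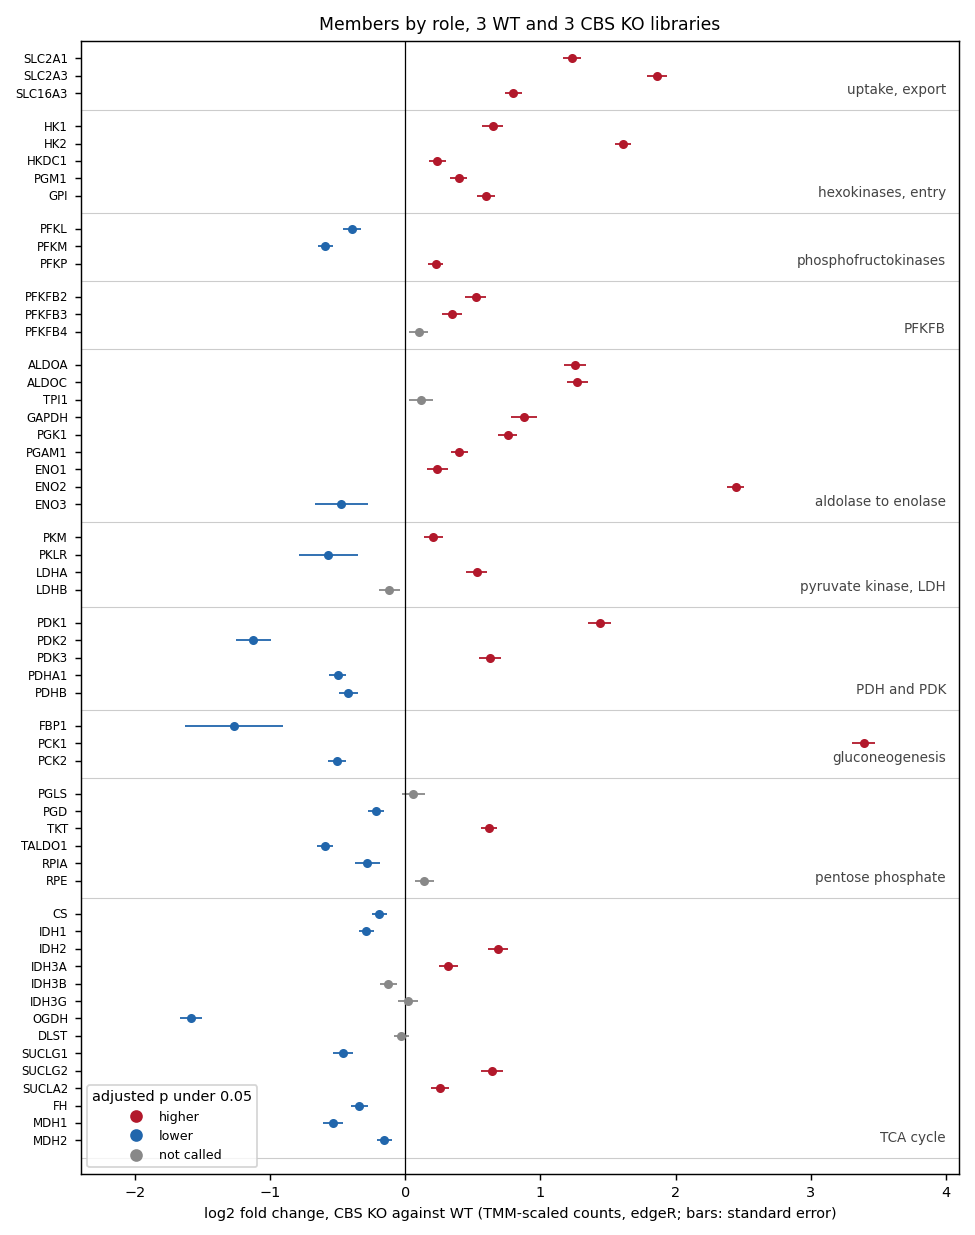
Log2 fold change of CBS KO against WT for the 55 tested members, in the order of the pathway (points: edgeR estimate, TMM-scaled counts; bars: standard error; colour: call). All 3 transport genes and all 5 genes of hexose entry lie to the right of 0, while 7 of the 14 TCA cycle genes were called lower and 4 higher. Over all genes tested 38.9% were called lower and 38.4% higher.

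**Figure D2:**
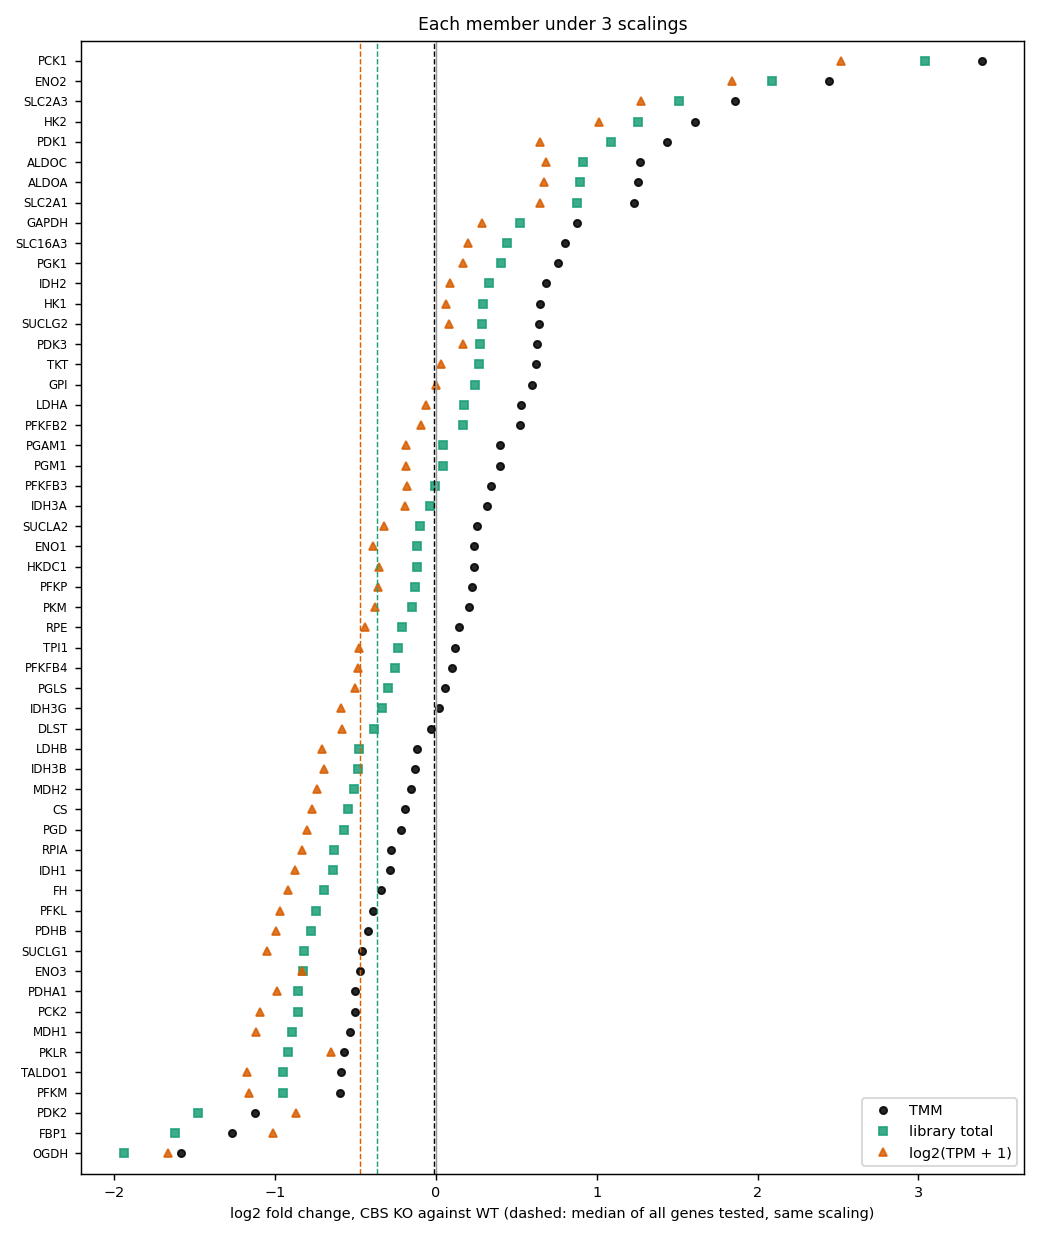
Log2 fold change of each tested member under TMM (circles), the library total (squares) and log2(TPM + 1) (triangles), with the median of all genes under each scaling as a dashed line. Each scaling shifts the members and the dashed line to the left together: the medians of all genes are -0.01, -0.36 and -0.47.

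HIF-1 binds the core ACGTG or GCGTG, and the E-box CACGTG holds the first of these within it. These letters were searched on both strands in the RefSeq windows of GRCh38.p14 that reach from 250 bases before an annotated gene start to 50 bases after it. A window was given for 52 members, 51 of them tested. ACGTG was present in a window of 22 of the 51 (43.1%), against 32.3% of the 10659 tested genes with a window and 21.4% of 35116 windows. These shares over genes and windows leave out 1 chromosome, which carries no member. Among the members from glucose uptake to lactate it was present in 15 of 25 (60.0%), and in the TCA cycle in 2 of 13 (15.4%). Of the 6 members with a window that were at least 2-fold higher, 5 held it, but these 6 were picked by their change in the same libraries. Members with several windows, such as HK2, ALDOA and PDK1, had more chances of a match, so this count is no test of the motif. The following lines show 1 match of each of these 5, on the strand of the gene, with ACGTG, its reverse complement CACGT or the E-box in capitals.
HK2, chr2:74835010-74835038, plus strand: tccggcgagagCACGTGgagagaatcgtg
ALDOA, chr16:30064374-30064402, plus strand: ggcagggaggcCACGTGatccgagtcccc
ALDOC, chr17:28576907-28576935, minus strand: ccccggaggagtCACGTagctctgcgaca
ENO2, chr12:6914450-6914478, plus strand: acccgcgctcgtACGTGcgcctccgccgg
PDK1, chr2:172556070-172556098, plus strand: cgcCACGTccctCACGTaccactcggcag

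PDK1 carried 2 matches within these 29 bases, starting 17 and 8 bases before an annotated start. In HK2, the second annotated start carried 2 E-boxes and 2 copies of GCGTG within 250 bases. The stretch before it is shown whole, with both motifs in capitals, because it overlaps no annotated exon and holds both motifs.
HK2, chr2:74834920-74835169, plus strand: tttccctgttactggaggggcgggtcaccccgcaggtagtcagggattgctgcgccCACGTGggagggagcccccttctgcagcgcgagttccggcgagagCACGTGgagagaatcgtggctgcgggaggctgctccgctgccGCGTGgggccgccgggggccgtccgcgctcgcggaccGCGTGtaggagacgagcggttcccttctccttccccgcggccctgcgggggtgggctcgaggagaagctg

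The median log2 fold change was 0.46 for the 22 tested members with ACGTG and -0.03 for those without, while over all genes with a window it was -0.003 with the motif and -0.026 without. Of these 22 members, 15 belong to the group from glucose uptake to lactate, so motif and role were not separated. GCGTG was present in 32 of 51 members (62.7%), against 57.5% of genes, and the E-box in 9 of 51 (17.6%), against 12.5%. Of the 6 members with a window that were at least 2-fold higher, 3 held GCGTG (50.0%) and 3 held the E-box (50.0%). For GCGTG the members' median was 0.16 with the motif and 0.14 without. From glucose uptake to lactate it was 0.29 with GCGTG and 0.60 without, whereas for ACGTG it was 0.60 with and 0.22 without. ACGTG was also present for 6 of the 18 members with a window that were lower, among them PFKM and PDK2. These are counts of letters in short windows, with no measurement of binding.

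All 3 members of glucose uptake and lactate export were higher, with a median log2 fold change of 1.23. Of 8 further transport genes outside the 56, 2 were higher, 3 lower and 3 not called (median log2 fold change -0.38), and the lactate carrier SLC16A1 was among those not called (-0.10, adjusted p = 0.129). SLC2A3 (GLUT3, a high-affinity glucose carrier best known from neurons; Entrez 6515, chromosome 12 at 7919230 to 7936187 in GRCh38) stood at 1643, 1589 and 1582 CPM in the WT libraries and at 5676, 6025 and 5808 CPM in the CBS KO libraries. This was a 3.64-fold rise (log2 fold change 1.86, SE 0.07, adjusted p = 1.2e-12), and SLC2A3 was the most abundant of the 3 in every library. SLC2A14 is a close copy of SLC2A3, and reads of the pair may have been split between them. SLC2A14 held 370 to 394 counts per WT library and 654 to 786 per CBS KO library, against 28963 to 29913 and 68551 to 71431 for SLC2A3.

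SLC2A1 (GLUT1, the widespread basal glucose carrier; Entrez 6513, chromosome 1 at 42925353 to 42958868) had 863, 900.5 and 866 CPM in WT against 1977, 2080 and 2127 in CBS KO, a 2.35-fold rise (log2 fold change 1.23, SE 0.07, adjusted p = 4.99e-11). Per length, SLC2A3 made up 60.7 to 62.5% of the FPKM of this carrier pair in WT and 70.5 to 71.7% in CBS KO. SLC16A3 (MCT4, which exports lactate from glycolytic cells) went from 82.2, 81.0 and 79.2 CPM to 134.5, 138 and 149.6 CPM, a 1.74-fold rise. None of the 3 genes had a CBS KO library as low as any WT library, and all 3 were called higher under each of the 5 scalings. In TPM (transcripts per 1000000, which sets levels of different genes on 1 scale within a library), the 3 together came to 1434 ± 16.03 in WT and 2942 ± 152 in CBS KO.

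All 5 genes of hexose entry were higher, with a median log2 fold change of 0.60, but HK2 was the only one of them called higher under all 5 scalings. HK2 (hexokinase 2, the inducible isozyme that docks on mitochondria; Entrez 3099, chromosome 2 at 74834127 to 74893359) stood at 179.5, 175 and 170 CPM in the WT libraries and at 549, 530 and 523 in CBS KO. The rise was 3.06-fold (log2 fold change 1.61, SE 0.06, adjusted p = 3.13e-13). HKDC1, a hexokinase-like protein expressed in the intestine, had 212, 214 and 197 CPM in WT against 249, 225 and 260 in CBS KO (log2 fold change 0.24). HKDC1 turned to -0.12 with the library total (adjusted p = 0.0966) and to -0.35 with TPM.

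Among hexokinase transcripts the lead passed from HKDC1 to HK2. HK2 made up 30.5, 30.0 and 31.4% of the family's FPKM in the WT libraries and 52.6, 53.6 and 50.3% in the CBS KO libraries, while HKDC1 went from 58.1, 59.3 and 58.55% to 38.4, 36.7 and 40.1%. These shares do not depend on how libraries are scaled against each other, and for both genes the groups were far apart relative to their spread. With 3 libraries against 3, the exact permutation test cannot go below p = 0.1, and both shares reached that value (two-sided, 0.12 after adjustment over 35 shares). HK1, the constitutive isozyme, went from 41.6, 38.7 and 34.0 CPM to 58.2, 58.9 and 62.1 CPM (log2 fold change 0.65, and 0.07 with TPM, adjusted p = 0.506). GPI, which converts glucose 6-phosphate to fructose 6-phosphate and was the most abundant of the group, went from 724, 704 and 649 CPM to 999, 1050 and 1100 CPM (log2 fold change 0.60, and 0.001 with TPM, adjusted p = 0.984). PGM1, which links glycogen to glycolysis, had a log2 fold change of 0.40 that turned to -0.19 with TPM.

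At the committing step 2 of the 3 members fell. PFKM, the muscle-type phosphofructokinase, fell from 215, 199.6 and 207.5 CPM to 139, 134 and 139.8 CPM (log2 fold change -0.59, SE 0.06, adjusted p = 4.9e-08), and PFKL, the liver type, from 378, 376 and 339 CPM to 266, 264 and 303 CPM (log2 fold change -0.39, SE 0.07). PFKP, the platelet type, stood at 249.7, 242 and 229 CPM in the WT libraries and at 279, 272 and 291 in CBS KO (log2 fold change 0.23, and -0.13 with the library total, where it was called lower). PFKM and PFKL were lower under all 5 scalings. The summed TPM of the 3 was 589 ± 24.7 in WT and 342 ± 14.2 in CBS KO, 0.58 of the WT level, where log2(TPM + 1) of the median gene changed by -0.47. In TMM-scaled CPM, which carries no length, the sum was 812 ± 34.1 and 696 ± 33.5, 0.86 of the WT level. PFKP took 32.25 to 32.3% of the family's FPKM in WT and 42.6 to 43.8% in CBS KO.

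PFKFB enzymes set the level of fructose 2,6-bisphosphate, the strongest activator of phosphofructokinase. PFKFB2 went from 45.6, 46.2 and 44.7 CPM to 72.9, 63.4 and 59.8 CPM (log2 fold change 0.52) and PFKFB3, the form with the highest kinase activity, from 48.1, 48.55 and 48.95 CPM to 66.8, 61.9 and 56.3 CPM (log2 fold change 0.35). PFKFB4, the most abundant of the 3 per length, had 94.2, 85.1 and 79.8 CPM in WT against 91.4, 90.9 and 95.2 in CBS KO; the test was not passed (adjusted p = 0.197). None of the 3 had a direction that held under every scaling: PFKFB2 stood at -0.09 and PFKFB3 at -0.18 with TPM.

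From aldolase to enolase, 7 of 9 members were higher, 1 was lower and 1 did not pass (median log2 fold change 0.76). ENO2 (the neuron-type enolase; Entrez 2026, chromosome 12 at 6914580 to 6923697) stood at 64.7, 61.8 and 57.0 CPM in the WT libraries and at 324, 338 and 337 in CBS KO, a 5.44-fold rise (log2 fold change 2.44, SE 0.06, adjusted p = 4.68e-15, edgeR). It was the steepest rise in glycolysis proper, yet ENO1, the widespread form, still supplied 91.4 to 92.4% of enolase FPKM in CBS KO, down from 97.9 to 98.1% in WT. ENO1 itself went from 2460, 2578 and 2373 CPM to 2687, 2906 and 3154 CPM (log2 fold change 0.24). The call for ENO1 was lost without WT replicate 3 (adjusted p = 0.0606), and its direction turned with the library total, FPKM and TPM.

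ALDOA (Entrez 226, chromosome 16 at 30064279 to 30070420), the main aldolase of muscle and of most tumours, had 1578, 1568 and 1389 CPM in WT against 3348, 3551 and 3920 in CBS KO, a 2.39-fold rise (log2 fold change 1.25, SE 0.08, adjusted p = 5.23e-10). ALDOC (Entrez 230, chromosome 17 at 28573120 to 28576895), the brain form, went from 133, 133.5 and 113 CPM to 276.5, 305 and 336 CPM, a 2.42-fold rise (log2 fold change 1.27). The pair kept its proportions: ALDOA made up 92.9 ± 0.14% of their FPKM in WT and 92.8 ± 0.16% in CBS KO, and the libraries of the groups overlapped (exact permutation p = 0.5).

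GAPDH, the most abundant member, had 7653, 7720 and 7324 CPM in WT against 12260, 13710 and 15780 in CBS KO, a 1.84-fold rise (log2 fold change 0.88, SE 0.10, adjusted p = 3.58e-07, and 0.29 with TPM). PGK1, which makes the first ATP of the pathway, rose 1.69-fold. Both were called higher under all 5 scalings. PGAM1 had a log2 fold change of 0.40 with TMM and -0.19 with TPM. TPI1, which interconverts the triose phosphates, had 2353, 2457 and 2327 CPM in WT against 2237, 2551 and 2964 in CBS KO; the test was not passed (adjusted p = 0.231), although it did without CBS KO replicate 1 (log2 fold change 0.20, adjusted p = 0.0178). ENO3, the muscle enolase, lay at 4.01, 4.61 and 3.00 CPM in WT and at 2.79, 3.08 and 2.52 in CBS KO (log2 fold change -0.47, adjusted p = 0.0371). Its groups overlapped, and its call was lost with DESeq2 (adjusted p = 0.107) and without WT replicate 1 (0.0834) or 2 (0.165) or CBS KO replicate 1 (0.0548) or 3 (0.0776). GENCODE 29 lists 62 pseudogenes named after GAPDH, 13 after PGAM1 and 4 each after TPI1 and ENO1, and how reads that fit both a gene and its copies were assigned is not given in the sources used here.

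**Figure D3:**
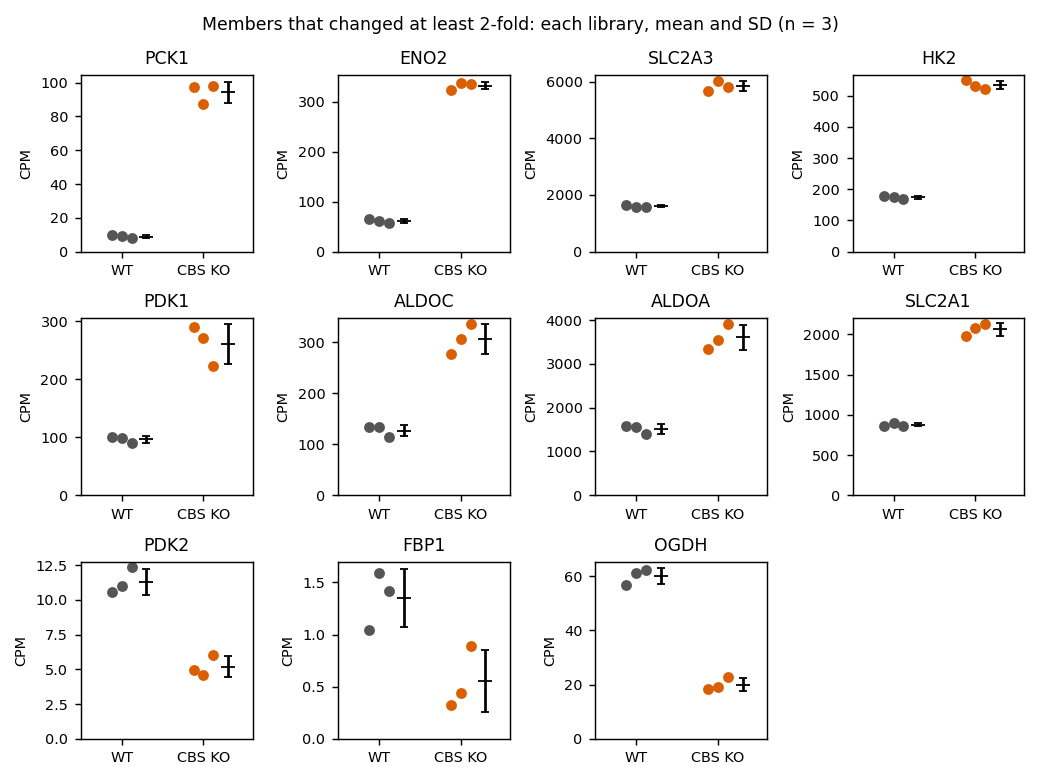
CPM (TMM-scaled) of each library for the 11 members called with a change of at least 2-fold, with mean and SD beside the points (n = 3 in each group; each axis starts at 0). In none of the 11 panels do the WT and CBS KO points overlap, and FBP1, near 1 CPM, has the widest spread relative to its level.

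At the end of glycolysis the changes were small. PKM, the pyruvate kinase of proliferating cells, went from 1479, 1471 and 1458 CPM to 1630, 1655 and 1813 CPM (log2 fold change 0.21, and -0.15 with the library total, where it was called lower). LDHA, the lactate dehydrogenase subunit that favours lactate formation, went from 2344, 2387 and 2200 CPM to 3101, 3285 and 3622 CPM (log2 fold change 0.53, SE 0.08, adjusted p = 9.52e-06, and -0.06 with TPM, adjusted p = 0.217). LDHB, the subunit that favours lactate use, had 1203, 1259 and 1295 CPM in WT against 1038, 1132 and 1291 in CBS KO; the test was not passed (adjusted p = 0.175), although it was called lower without CBS KO replicate 3 (log2 fold change -0.22, adjusted p = 0.000867). The balance of the pair shifted: LDHA made up 50.2, 49.5 and 46.8% of their FPKM in WT and 60.5, 60.0 and 59.3% in CBS KO (exact permutation p = 0.1, the smallest possible). PKLR, the liver and red cell pyruvate kinase, lay at 2.31, 3.02 and 3.60 CPM in WT against 2.29, 1.93 and 1.79 in CBS KO, and its call as lower (log2 fold change -0.57, adjusted p = 0.0272) was lost with DESeq2 (adjusted p = 0.0889) and without WT replicate 2 (0.0561) or 3 (0.124) or CBS KO replicate 2 (0.069) or 3 (0.0649).

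At the gate between glycolysis and the TCA cycle, 2 kinases were higher, and 1 kinase and the 2 subunits of pyruvate dehydrogenase itself, PDHA1 and PDHB, were lower. PDK1 (Entrez 5163, chromosome 2 at 172555373 to 172724312), a kinase that inactivates pyruvate dehydrogenase, had 101, 98.4 and 89.3 CPM in WT against 289.5, 270 and 223 in CBS KO, a 2.71-fold rise (log2 fold change 1.44, SE 0.08, adjusted p = 7.8e-10). PDK2 (Entrez 5164, chromosome 17 at 50094737 to 50112152) fell 2.18-fold, from 10.55, 11.0 and 12.3 CPM to 4.92, 4.57 and 6.02 CPM (log2 fold change -1.12, SE 0.13, adjusted p = 6.87e-07). PDK3 went from 23.0, 25.0 and 22.3 CPM to 37.9, 37.4 and 33.3 CPM (log2 fold change 0.63, and 0.17 with TPM, adjusted p = 0.152). PDK1 thus made up 76.9 to 78.6% of PDK transcripts per length in WT and 84.7 to 88.65% in CBS KO, and PDK2 11.9 to 13.9% and 3.39 to 6.33%.

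PDK4 had 1, 0 and 1 counts in WT and 15, 4 and 2 in CBS KO, too few for the test, where a count of 0 in WT replicate 2 allows up to 0.165 CPM (counting error only). PDHA1, the catalytic alpha subunit of pyruvate dehydrogenase and the most abundant member of this group in WT, fell from 181, 187 and 187 CPM to 123, 128 and 141 CPM (log2 fold change -0.50, SE 0.06, adjusted p = 1.16e-06). PDHB, the beta subunit, had a log2 fold change of -0.42, and both were lower under all 5 scalings. Among genes of this step outside the 56, the phosphatase PDP2, which reverses the action of the kinases, went from 34.1, 34.1 and 34.0 CPM to 97.5, 94.7 and 80.5 CPM (log2 fold change 1.42). PDPR, the regulatory subunit of pyruvate dehydrogenase phosphatase, fell from 139.6, 136.5 and 139 CPM to 72.8, 72.5 and 61.9 CPM, a 2.01-fold fall (adjusted p = 8.95e-10). Of the other subunits of the pyruvate dehydrogenase complex outside the 56, DLAT (-0.35) and DLD (-0.75) were lower, and PDHX had a log2 fold change of 0.13 (adjusted p = 0.0903). The phosphatase PDP1 rose 1.98-fold (adjusted p = 8.92e-09) and was higher under every scaling. MPC1 (0.32) and MPC2 (0.18) were higher with TMM but not under every scaling. Of the 8 further genes of this step, 4 were thus higher, 3 lower and 1 not called. PDPR, DLAT, DLD, PDHX, PDP1, MPC1, MPC2, SLC16A1 and SLC2A12 are named after their values had been seen.

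The members of gluconeogenesis split sharply. PCK1 (cytosolic PEP carboxykinase, which diverts oxaloacetate towards glucose; Entrez 5105, chromosome 20 at 57561110 to 57568121) stood at 9.61, 9.22 and 8.09 CPM in the WT libraries and at 97.2, 87.3 and 98.1 in CBS KO. This 10.5-fold rise was the largest among the 55 members tested (log2 fold change 3.39, SE 0.09, adjusted p = 5.05e-15). PCK2, the mitochondrial form, fell from 118, 133 and 119 CPM to 85.2, 86.2 and 89.7 CPM (log2 fold change -0.50, SE 0.06, adjusted p = 1.83e-06). PCK1 supplied 5.16, 4.45 and 4.20% of the pair's FPKM in WT and 41.1, 39.4 and 40.2% in CBS KO, a gain of 35.7 percentage points (exact permutation p = 0.1). Counted by reads without length the gain was 45.2 points. FBP1 (Entrez 2203, chromosome 9 at 94603133 to 94640263), fructose bisphosphatase, lay at 1.04, 1.59 and 1.42 CPM in WT against 0.33, 0.44 and 0.89 in CBS KO (log2 fold change -1.27, SE 0.36, adjusted p = 0.00458).

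**Figure D4:**
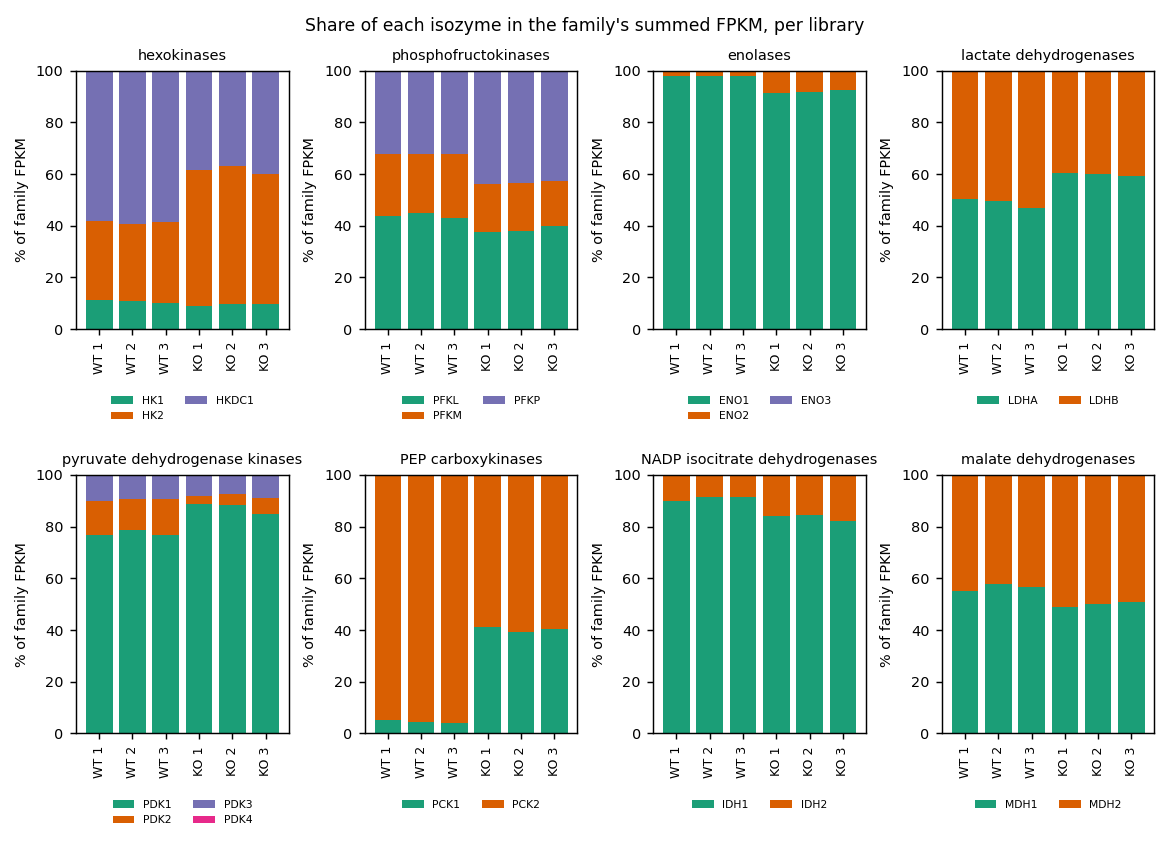
Share of each isozyme in the summed FPKM of its family, 1 bar per library (3 WT, 3 CBS KO). PCK1 goes from under 6% to about 40% of the PEP carboxykinase pair, HK2 overtakes HKDC1, and LDHA moves from near parity with LDHB to about 60%.

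Across the 14 families of isozymes or alternative subunits, 35 shares were computed, and for 29 of them the WT and CBS KO libraries did not overlap. Lack of overlap was common: in CPM it held for 38.9% of all genes on the higher side and 40.1% on the lower side. The 7 shares that moved by at least 10 percentage points were those of PCK1 and PCK2, HK2 and HKDC1, LDHA and LDHB, and PFKP. The list depends on the unit: counted by reads without length, the share of PDK1 moved by 12.6 points (9.82 by FPKM), and those of LDHA and LDHB by less than 10. Shares within a family are not independent, since 1 gains what the others lose. No share could pass an adjusted p of 0.05 with 3 libraries in a group (smallest exact p 0.1, 0.12 after adjustment).

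In the pentose phosphate pathway, which makes NADPH and ribose, 1 of 6 members was higher, 3 were lower and 2 did not pass. Over all genes 38.4% were higher and 38.9% lower. TKT, transketolase, went from 345, 348 and 361 CPM to 521, 526 and 573 CPM (log2 fold change 0.62, SE 0.06, adjusted p = 7.22e-08, and 0.03 with TPM, adjusted p = 0.561). TALDO1, transaldolase, its partner in the non-oxidative branch, fell from 165.5, 163 and 171 CPM to 106, 107 and 119 CPM (log2 fold change -0.59, SE 0.06, adjusted p = 1.46e-07). RPIA, ribose 5-phosphate isomerase, went from 26.0, 24.4 and 29.1 CPM to 19.6, 22.5 and 23.4 CPM (log2 fold change -0.28), and its call was lost without WT replicate 3 (adjusted p = 0.0647).

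PGD, the second NADPH-making step, had a log2 fold change of -0.22 (adjusted p = 0.00319). PGLS (log2 fold change 0.06, adjusted p = 0.535) and RPE (0.14, adjusted p = 0.0679) did not pass with TMM, and both were called lower with TPM. RPE was called higher with median-ratio factors (0.16, adjusted p = 0.0465), with length offsets (0.21, adjusted p = 0.0024) and without CBS KO replicate 3 (0.20, adjusted p = 0.00232), so its direction is not settled. The summed TPM of the 6 members was 1031 ± 24.6 in WT and 698 ± 10.3 in CBS KO, 0.68 of the WT level, beside a change of -0.47 in log2(TPM + 1) of the median gene. In TMM-scaled CPM the sum went the other way, from 890 ± 20.8 to 999 ± 43.9.

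Of the 14 TCA cycle members 4 were higher and 7 lower, against 38.4% and 38.9% of all genes, and 3 missed the threshold (median log2 fold change of the 14 -0.14). None was called higher under all 5 scalings, and the 7 lower ones were lower under each. Over all genes the lower side kept nearly all its calls too (38.9% with TMM, 37.9% under all 5). OGDH (Entrez 4967, chromosome 7 at 44606627 to 44709066), the catalytic subunit of the 2-oxoglutarate dehydrogenase complex, fell 3.00-fold, from 56.7, 61.3 and 62.4 CPM to 18.45, 19.0 and 22.7 CPM (log2 fold change -1.58, SE 0.08, adjusted p = 4.59e-11). DLST, the core subunit of the same complex, stood at 129.6 ± 0.68 CPM in WT against 127 ± 4.71 in CBS KO; the test was not passed (adjusted p = 0.638).

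IDH2, the mitochondrial NADP-dependent isocitrate dehydrogenase, went from 30.5, 29.2 and 27.9 CPM to 46.2, 43.8 and 50.7 CPM (log2 fold change 0.69, SE 0.08, adjusted p = 3.72e-07, and 0.09 with TPM, adjusted p = 0.294). IDH1, its cytosolic counterpart, had a log2 fold change of -0.29 and held 90.0 to 91.4% of the pair's FPKM in WT and 82.2 to 84.6% in CBS KO. Of the subunits of the NAD-dependent enzyme, IDH3A had a log2 fold change of 0.32 with TMM and -0.03 with the library total (adjusted p = 0.675), while IDH3B (-0.13, adjusted p = 0.0753) and IDH3G (0.02, adjusted p = 0.825) did not pass. IDH3B was called lower with length offsets (-0.14, adjusted p = 0.0141), with no filter on low counts (-0.16, adjusted p = 0.0233), when CBS KO replicate 3 was left out (-0.20, adjusted p = 0.00137), and with the library total, FPKM and TPM.

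Succinyl-CoA ligase pairs 1 alpha subunit with a beta subunit that makes GTP (SUCLG2) or ATP (SUCLA2). SUCLG1, the alpha subunit and in WT the most abundant TCA member per length (IDH1 was in 2 of 3 CBS KO libraries), fell from 174, 183 and 174 CPM to 118, 122 and 145 CPM (log2 fold change -0.46, SE 0.07, adjusted p = 1.66e-05). SUCLG2 went from 37.6, 32.3 and 36.1 CPM to 51.9, 53.7 and 59.8 CPM (log2 fold change 0.64, SE 0.08, adjusted p = 1.25e-06, and 0.08 with TPM, adjusted p = 0.334), and SUCLA2 had a log2 fold change of 0.26. The beta subunits thus lay on the other side of 0 from their shared partner with TMM, whereas SUCLA2 turned to -0.10 with the library total. CS, which opens the cycle, and FH and MDH2, which close it, had log2 fold changes of -0.19, -0.34 and -0.15. MDH1, the cytosolic malate dehydrogenase, had one of -0.54. The call for MDH2 was lost with DESeq2 (adjusted p = 0.0526) and without WT replicate 3 (0.0753) or CBS KO replicate 1 (0.0676) or 2 (0.0597).

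Summed per library in TPM, the TCA cycle members came to 2034 ± 23.4 in WT and 1160 ± 20.6 in CBS KO, 0.57 of the WT level, while log2(TPM + 1) of the median gene changed by -0.47. The 27 tested members from glucose uptake to lactate came to 34220 ± 944 in WT and 37060 ± 1001 in CBS KO. Their ratio to the TCA sum, which does not depend on the scaling between libraries, was 17.2, 17.1 and 16.2 in WT and 30.5, 32.1 and 33.3 in CBS KO, 1.9 times as high. GAPDH alone carries a large part of the first sum. Without it the sum was 20010 ± 547 TPM in WT and 19710 ± 104 in CBS KO, and these groups overlapped, so that in TPM the sum was higher only with GAPDH. In TMM-scaled CPM it was 18440 ± 532 and 30210 ± 1781 without GAPDH. The ratio without GAPDH was 10.0, 10.0 and 9.50 in WT and 16.6, 17.1 and 17.3 in CBS KO, 1.73 times as high. All 56 members together came to 37700 ± 923 TPM in WT and 39210 ± 955 in CBS KO, and these groups overlapped.

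**Figure D5:**
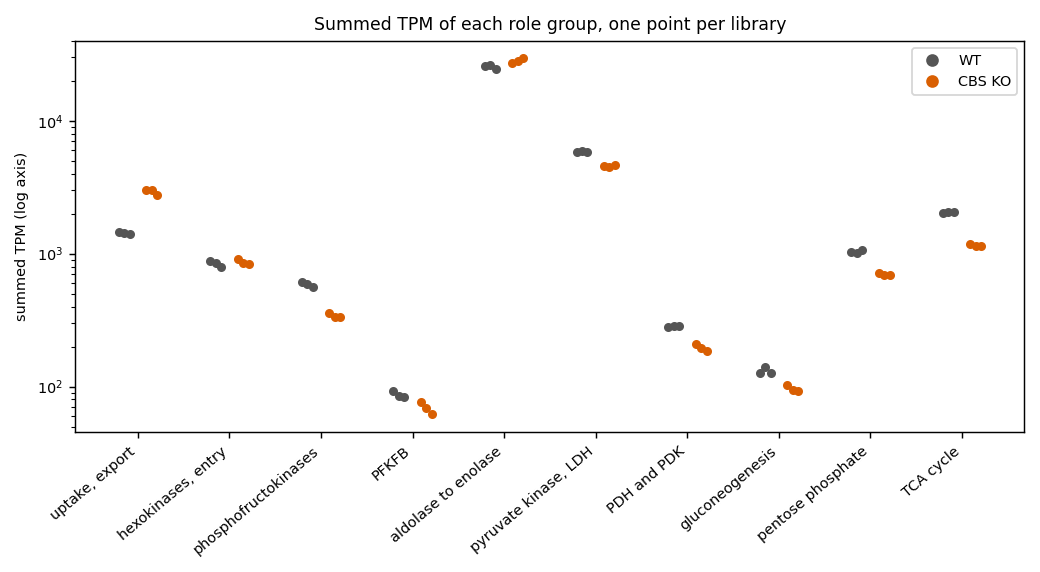
Summed TPM of the members of each role, 1 point per library on a log axis. The uptake and export sum is about 2 times as high in CBS KO, the phosphofructokinase, pentose phosphate and TCA sums are lower in every CBS KO library, and the hexose entry sums overlap. log2(TPM + 1) of the median gene changed by -0.47, and in TMM-scaled CPM the pentose phosphate sum was 1.12 times the WT level.

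Of 62 further genes of the same pathways, 59 had a row and 51 were tested. Among them 16 were higher, 23 lower and 12 not called, near the background of 38.4% and 38.9%, with a median log2 fold change of -0.10. Changes of at least 2-fold were called for 4 that were higher and 7 that were lower, against 12.0% and 11.5% of all genes. TKTL1, a transketolase relative, had 1, 4 and 2 counts in the WT libraries and 10, 10 and 12 in CBS KO (log2 fold change 2.73, a size that rests on few reads). GCKR, the regulator of glucokinase, went from 0.44, 0.33 and 0.27 CPM to 2.54, 1.41 and 1.79 CPM (log2 fold change 2.44). LDHD, which oxidises D-lactate, fell from 15.2, 16.2 and 13.9 CPM to 2.71, 2.02 and 3.17 CPM (log2 fold change -2.51, adjusted p = 1.36e-10).

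Genes of glycogen turnover moved in both directions. GYS1, glycogen synthase, fell from 104.7, 103 and 91.7 CPM to 37.4, 36.0 and 36.3 CPM (log2 fold change -1.45), while GBE1, the branching enzyme, rose from 18.5, 18.5 and 17.7 CPM to 48.7, 50.45 and 46.8 CPM (log2 fold change 1.42). Of 6 other tested carriers of the SLC2A family 3 fell by at least 2-fold: SLC2A10 had a log2 fold change of -1.88, SLC2A6 of -1.18 and SLC2A2 (GLUT2, the low-affinity carrier of enterocytes and hepatocytes) of -1.04. SLC2A12 was higher, from 1.26, 1.70 and 1.64 CPM to 3.44, 3.25 and 2.28 CPM (log2 fold change 0.96, adjusted p = 0.00103), a call that was lost with FPKM (adjusted p = 0.287) and TPM (adjusted p = 0.628). SLC2A2 and SLC2A10 lay under 2 CPM in every library. Of the 13 further TCA genes 3 were higher, 5 lower and 5 did not pass, beside 38.4% higher and 38.9% lower over all genes.

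Overlapping genes limit some of these values. Exons of 33 members overlap an exon of another gene in GENCODE 29, 28 of them on the opposite strand, among them PFKM with SENP1, ENO3 with PFN1, PDHA1 with MAP3K15 and TPI1 with SPSB2. The libraries were prepared with a strand-marking dUTP step, and whether the counting used strand is not given in the sources used here, so reads of such pairs may have been mixed.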

How the data were processed

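Messenger RNA of 6 Caco-2 libraries (3 WT, 3 CBS KO) was read from 1 table of all genes. Per the submitters' processing notes, the tools were StringTie 2.1.6, HISAT2 2.2.1, edgeR, DESeq2 and cutadapt 1.9, on GRCh38, with no role or order given. The authors deposited expected counts, FPKM and TPM values per gene and library, with 7.12 to 7.43% of the expected counts not whole. The handling of reads that map to several genes, and the use of strand, were not given in the sources used here. The mitochondrial transcripts, MALAT1 and NEAT1 were not analysed here.

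Counts were rounded, filtered with edgeR's filterByExpr (13028 genes left), scaled by TMM and tested for CBS KO against WT with the quasi-likelihood test (edgeR 4.0.16, limma 3.58.1, R 4.3.3), with Benjamini-Hochberg adjustment over all genes tested and an adjusted p under 0.05 as the call. The standard error is the estimate divided by the root of its F statistic. All 6 libraries entered 1 fit with no block or covariate. A count of 0 allows 0.164 to 0.264 CPM, depending on the library (3 counts, counting error only). Isozyme shares were computed from FPKM and compared by a two-sided exact permutation test. Alternatives were the library total, median-ratio factors, DESeq2 1.42.0, limma on log2 of FPKM or TPM with 1 added and of FPKM with 0.1 added (values of at least 0.1 in 3 libraries), no filter, a mean of at least 5 CPM, length offsets, a replicate block and leaving out each library. Gene positions are those of RefSeq GRCh38.p14 and promoter windows those of the RefSeq table, in which SLC2A3, PFKFB2, PCK1 and OGDH were not found. No library of a group repeated another: the chi-square per gene between libraries of a group was 1.98 to 13.3.

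Values of every library are printed, in each role, for up to 3 called members with the largest change and for the most abundant member, and for isozymes whose share moved by at least 10 percentage points. Of the further pathway genes, at most 10 called with a change of at least 2-fold are named. The members, lists and rules were chosen with earlier results of these data known, and some rest on the same libraries. The fit was tested on simulated counts before use.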

Additional observations from a re-analysis of the deposited data

How the results depend on the processing

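No single scaling is known to be right for these libraries, and the calls of small changes follow it. Calls over all genes shifted with the scaling too, from 4998 higher and 5062 lower with TMM to 2081 and 8700 with log2(TPM + 1). With the library total 18 members were higher, 29 lower and 5 at least 2-fold higher, the members' median was -0.145, 9 further pathway genes were higher, and the log2 fold change turned for HKDC1 (-0.118), PFKP (-0.129), PFKFB3 (-0.00676), PFKFB4 (-0.255), TPI1 (-0.238), ENO1 (-0.117), PKM (-0.145), PGLS (-0.296), RPE (-0.21), IDH3A (-0.0341), IDH3G (-0.337) and SUCLA2 (-0.0973). With log2(FPKM + 1) 18 were higher, 30 lower, 4 at least 2-fold higher and 1 at least 2-fold lower, the median was -0.156, 8 further genes were higher, and the turned values were HKDC1 (-0.121), PFKP (-0.125), PFKFB4 (-0.252), TPI1 (-0.244), ENO1 (-0.156), PKM (-0.145), PGLS (-0.269), RPE (-0.207), IDH3G (-0.36) and SUCLA2 (-0.0936). With log2(FPKM + 0.1) the figures were 18, 30 and 4, a median of -0.157 and 8 further genes, with HKDC1 (-0.122), PFKP (-0.126), PFKFB4 (-0.26), TPI1 (-0.244), ENO1 (-0.157), PKM (-0.145), PGLS (-0.273), RPE (-0.213), IDH3G (-0.366) and SUCLA2 (-0.0966). With log2(TPM + 1) 11 were higher, 34 lower, 4 at least 2-fold higher and 7 at least 2-fold lower, the median was -0.389, 6 further genes were higher and 39 lower, and the turned values were HKDC1 (-0.351), PGM1 (-0.187), PFKP (-0.357), PFKFB2 (-0.0898), PFKFB3 (-0.182), PFKFB4 (-0.482), TPI1 (-0.477), PGAM1 (-0.186), ENO1 (-0.389), PKM (-0.377), LDHA (-0.0575), PGLS (-0.5), RPE (-0.437), IDH3A (-0.188), IDH3G (-0.592) and SUCLA2 (-0.322). Fold changes with an added 1 understate those of low genes. IDH3G turned without a filter (-0.0194), and PGLS (-0.105), IDH3G (-0.021) and DLST (0.0303) with length offsets, under which 30 members were higher and 21 lower. Leaving out 1 library turned only members that had not passed: PGLS (-0.0214 to 0.117 over the 6 fits), IDH3G (-0.0672 to 0.0526) and TPI1 (-0.00395 to 0.203). Over the 6 such fits 27 to 29 members were higher and 16 to 19 lower. DESeq2 called 28 higher and 16 lower. With a mean of at least 5 CPM, 52 members were tested. No pairing by replicate number was visible: deviations of same-numbered libraries correlated at 0.056, 0.011 and 0.029, and those of different-numbered ones at -0.053 to 0.022. These values cannot show whether the libraries were prepared in pairs. With the replicate block 28 members were higher and 19 lower, with all 55 calls kept. The ratio of uptake-to-lactate TPM to TCA TPM was computed after the data had been seen. So was the comparison of summed TPM with summed TMM-scaled CPM, under which the fold of CBS KO over WT passed from under 1 to above 1 for the PFKFB enzymes (1.22), pyruvate kinase and lactate dehydrogenase (1.23), pyruvate dehydrogenase and its kinases (1.28), gluconeogenesis (1.36) and pentose phosphate (1.12).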
